A study of Mus musculus with 2 samples.

Results

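The genes described here encode the complexes that build melanosomes and the machinery that carries them. They were chosen by symbol, as a list of 35 genes with 1 probe set each, from 19505 named genes on the array. All 35 were matched, and none had more than 1 probe set. The arrays compared B16F10 cells that carried an NRF3 expression plasmid with B16F10 cells that carried a GFP expression plasmid. B16F10 is a pigmented mouse melanoma line. In each case a puromycin resistance vector had been transfected together with the plasmid, resistant cells had been selected as stable cells, and forskolin, an activator of adenylate cyclase that raises cAMP, had been given for 5 days. Forskolin and puromycin selection were therefore shared by the 2 groups, and the comparison concerns NRF3 against GFP under forskolin. Each group had 1 array, made from total RNA, and without replicates the differences carry neither an error nor a p-value.

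Melanosomes are lysosome-related organelles that arise from endosomes. Cargo such as the tyrosinase family of enzymes is sorted out of early endosomes by the adaptor complexes AP-1 and AP-3 and by the biogenesis of lysosome-related organelles complexes, BLOC-1 and BLOC-2. BLOC-3 activates the GTPases RAB32 and RAB38, and the HOPS complex tethers endosomal and lysosomal membranes before they fuse. Mature melanosomes are held in the actin-rich periphery by RAB27A, melanophilin and myosin Va. Loss of many of these genes dilutes coat colour in mice, and in people causes Hermansky-Pudlak, Griscelli or Chediak-Higashi syndrome.

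The values are log2 values from the robust multi-array average (RMA), and each difference is the NRF3 value minus the GFP value. A gene counted as detected when its brighter value reached 5.89, the median of the named probe sets, and 34 of the 35 genes did so. Sytl1 did not, with 5.03 on the NRF3 array and 5.09 on the GFP array. The array's control rows with neg in their names, called neg rows here, had upper quartiles of 7.85 on the NRF3 array and 7.52 on the GFP array. Apart from Sytl1, 5 genes had a value under these quartiles, namely Hps6, Hps1, Bloc1s4, Vps18 and Sytl2, and the sizes of their differences may depend on background. All 10 melanocytic markers were detected, while 0 of 18 matched markers of leukocytes, of fibroblasts and endothelium, and of epithelium were. The plasmid's gene, Nfe2l3, had 10.15 on the NRF3 array and 6.04 on the GFP array, where it lay under the median of the neg rows.

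Differences of at least 1.5-fold (0.58 on the log2 scale) served as a rule of size. Of the 34 detected genes, 11 were that much higher in NRF3 cells, or 32.4%, against 17.0% of all 10162 detected genes. Another 5 were that much lower, or 14.7%, against 23.6% of all detected genes. Hps6, which is 1 of these 5, reached the detection floor on the GFP array only. The median difference was 0.24, with quartiles of -0.18 and 0.68. Across all detected genes the median was -0.07, with quartiles of -0.55 and 0.39. The genes on the lower side were Mlph, Myo5a, Hps5, Vps16 and Hps6. Those on the higher side came from AP-3 (Ap3s2, Ap3m1), AP-1 (Ap1g1, Ap1s2), HOPS and its relative VPS33B (Vps18, Vps11, Vps33b), BLOC-1 (Bloc1s3), the granule tether Sytl2, and Lyst and Ankrd27. At 2-fold, 5 genes were higher (Sytl2, Ap3s2, Ap1g1, Bloc1s3 and Lyst), or 14.7%, and 1 was lower (Mlph), or 2.94%, against 6.75% and 11.0% of all detected genes. In bulk RNA, fewer cells with a transcript and less of it per cell cannot be told apart.

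**Figure D1:**
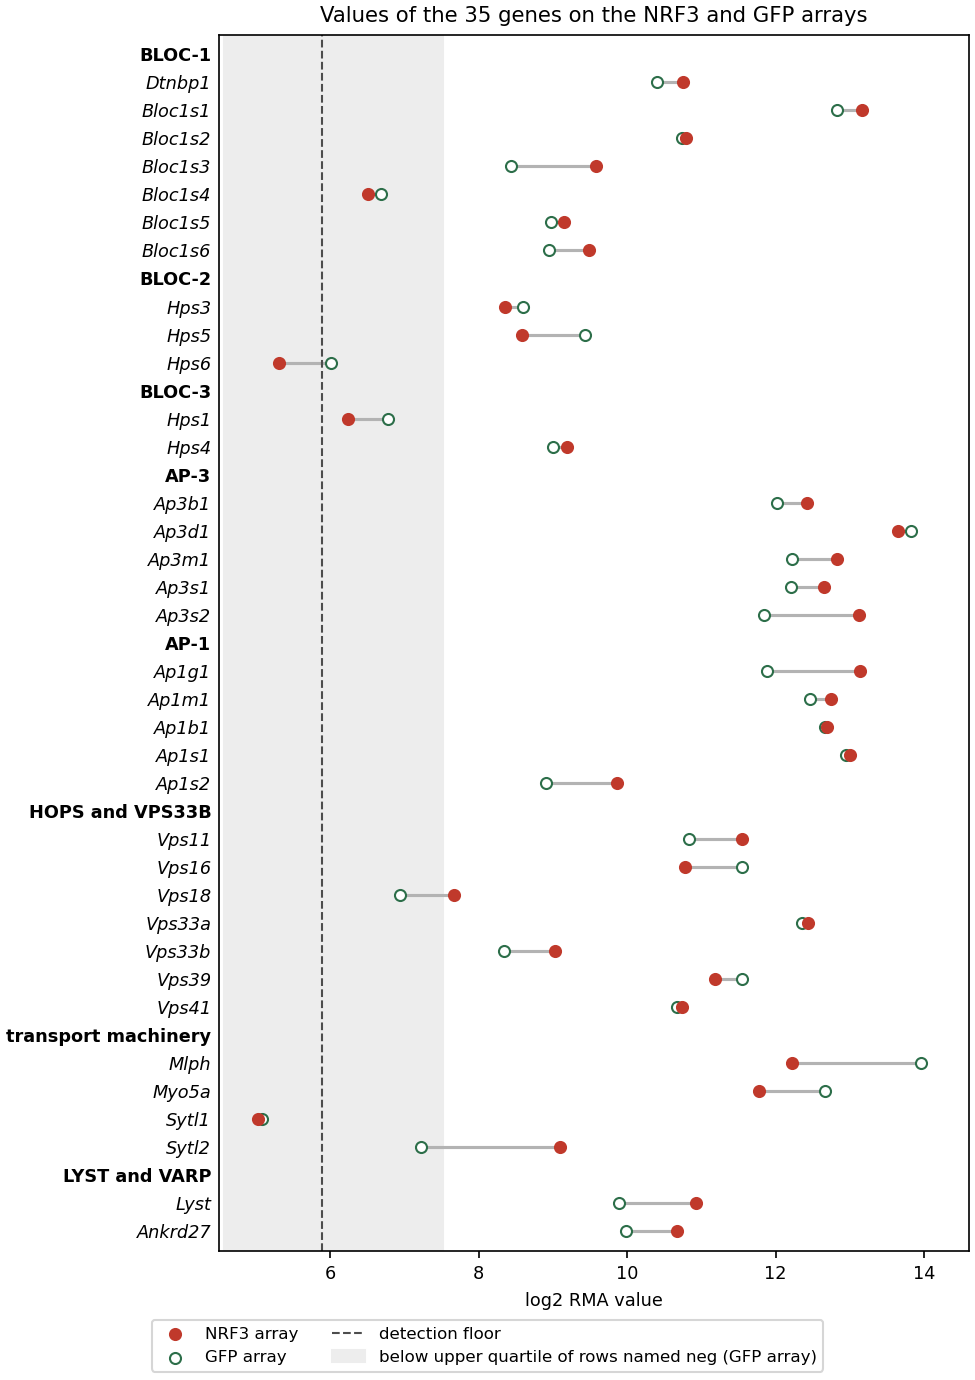
The log2 RMA value of each of the 35 genes on the NRF3 array (filled red) and the GFP array (open green), grouped by complex and joined by a grey line. The dashed line is the detection floor of 5.89 and the grey area lies below 7.52, the upper quartile of the neg rows on the GFP array. Values can be compared within a gene and not between genes, and the widest gaps are those of Sytl2, Mlph, Ap3s2 and Ap1g1.

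Promoter sequence was at hand for 28 of the 35 genes, in RefSeq windows (GRCm38.p6) of 250 bases before and 50 after the annotated gene start, with 2 windows for Hps1. E-boxes of the form CACGTG, which the melanocyte factor MITF and its relatives TFEB and TFE3 can bind, lay in a window of 9 of the 28 genes, or 32.1%. The share was 7.15% of all 32851 windows of the table and 9.92% of the 10716 windows of detected genes. Counting both strands, all 12 E-boxes in the 9 windows were also part of a TCACGTG, a longer form with the flank of lysosomal promoter elements. That form was in 3.77% of all windows and 6.12% of those of detected genes. In 7 of the 9 genes an E-box began within 50 bases of the start. The related CATGTG was found in 4 of 28 genes (14.3%), against 14.2% of all windows and 8.67% of those of detected genes. TGACNNNGC, the core of the antioxidant response element that the NRF family and small MAF proteins bind, was in 6 of 28 (21.4%), against 12.4% and 13.9%. A match is only a run of letters and shows no binding. Mitf itself was at 15.19 on the NRF3 array and 14.26 on the GFP array, 1.91-fold higher in NRF3 cells. Whether that bears on the genes with E-boxes was not tested.

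E-boxes were present in genes on either side of the comparison. Of the 9 genes, 2 were at least 1.5-fold higher in NRF3 cells (Bloc1s3, Ap1s2), 3 were as much lower (Mlph, Hps5, Vps16) and 4 were within 1.5-fold, with a median difference of -0.25. Of the 18 detected genes whose window had none, 6 were higher and 2 were lower, and the median difference was 0.18. Of all detected genes, 17.0% were that much higher and 23.6% that much lower. Whether genes with and without E-boxes differ was not tested, and the groups of 9 and 18 are small. The 250 bases before the start are shown for the 5 E-box genes past the rule of size, because the same element stands before genes that differ in opposite directions. Their positions are Mlph at chr1:90914850-90915099 (plus strand), Hps5 at chr7:46795882-46796131 (minus strand), Vps16 at chr2:130424070-130424319 (plus strand), Bloc1s3 at chr7:19508371-19508620 (minus strand) and Ap1s2 at chrX:163908767-163909016 (plus strand). Capitals mark the E-box with its flank and, in Vps16 and Bloc1s3, the overlapping TGACNNNGC, which in Vps16 reads on the other strand and in Bloc1s3 runs past the start. Ap1g1, past the rule with a TGACNNNGC from base 6 after the start, had no match before it and is not shown.
Mlph: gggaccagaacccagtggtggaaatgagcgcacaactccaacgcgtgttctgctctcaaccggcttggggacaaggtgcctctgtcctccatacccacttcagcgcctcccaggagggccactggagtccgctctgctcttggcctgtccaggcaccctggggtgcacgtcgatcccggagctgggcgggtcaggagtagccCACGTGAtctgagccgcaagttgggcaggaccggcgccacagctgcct
Hps5: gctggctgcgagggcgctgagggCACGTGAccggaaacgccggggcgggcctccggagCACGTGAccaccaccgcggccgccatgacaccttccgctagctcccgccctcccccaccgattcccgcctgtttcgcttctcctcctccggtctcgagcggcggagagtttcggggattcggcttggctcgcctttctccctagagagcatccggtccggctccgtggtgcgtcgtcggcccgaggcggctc
Vps16: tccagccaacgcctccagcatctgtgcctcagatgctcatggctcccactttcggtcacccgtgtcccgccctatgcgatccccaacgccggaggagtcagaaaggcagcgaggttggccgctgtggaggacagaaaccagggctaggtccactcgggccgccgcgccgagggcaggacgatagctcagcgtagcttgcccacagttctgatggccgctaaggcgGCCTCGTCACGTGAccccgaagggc
Bloc1s3: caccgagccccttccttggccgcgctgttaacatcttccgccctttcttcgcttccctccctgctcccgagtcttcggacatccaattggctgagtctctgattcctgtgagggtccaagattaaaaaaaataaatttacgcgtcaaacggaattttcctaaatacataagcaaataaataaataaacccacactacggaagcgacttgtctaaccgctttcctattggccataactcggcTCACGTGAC
Ap1s2: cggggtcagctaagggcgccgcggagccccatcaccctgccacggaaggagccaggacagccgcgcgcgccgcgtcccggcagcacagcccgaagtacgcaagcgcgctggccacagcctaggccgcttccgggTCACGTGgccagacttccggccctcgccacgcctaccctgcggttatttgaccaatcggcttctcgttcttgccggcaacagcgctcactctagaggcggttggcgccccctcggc

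In Mlph the E-box began 48 bases before the start, in Vps16 18 and in Bloc1s3 8, whereas in Hps5 the 2 copies lay 227 and 192 bases before it and in Ap1s2 the single copy 115. In the other 4 genes, all within 1.5-fold, every copy began within 28 bases of the start. Windows of 30 bases around these copies are shown for comparison, with the E-box in capitals. They are on the minus strand, at these positions: Bloc1s1 at chr10:128923526-128923555, Bloc1s1 at chr10:128923510-128923539, Hps1 at chr19:42779962-42779991, Hps3 at chr3:20035308-20035337, Vps33a at chr5:123573026-123573055, Vps33a at chr5:123573010-123573039.
Bloc1s1, 19 bases before the start: aggctcttgcgtCACGTGatactgcgatca
Bloc1s1, 3 bases before the start: tgatactgcgatCACGTGacgccttccggg
Hps1, 1 base before the start: atgtggctgagtCACGTGtcctacccggaa
Hps3, 15 bases before the start: ggtcgcagcgctCACGTGatccggagcagc
Vps33a, 28 bases before the start: agcgactcggatCACGTGaacgtcccgtca
Vps33a, 12 bases before the start: tgaacgtcccgtCACGTGacgcaggcggcg

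**Figure D2:**
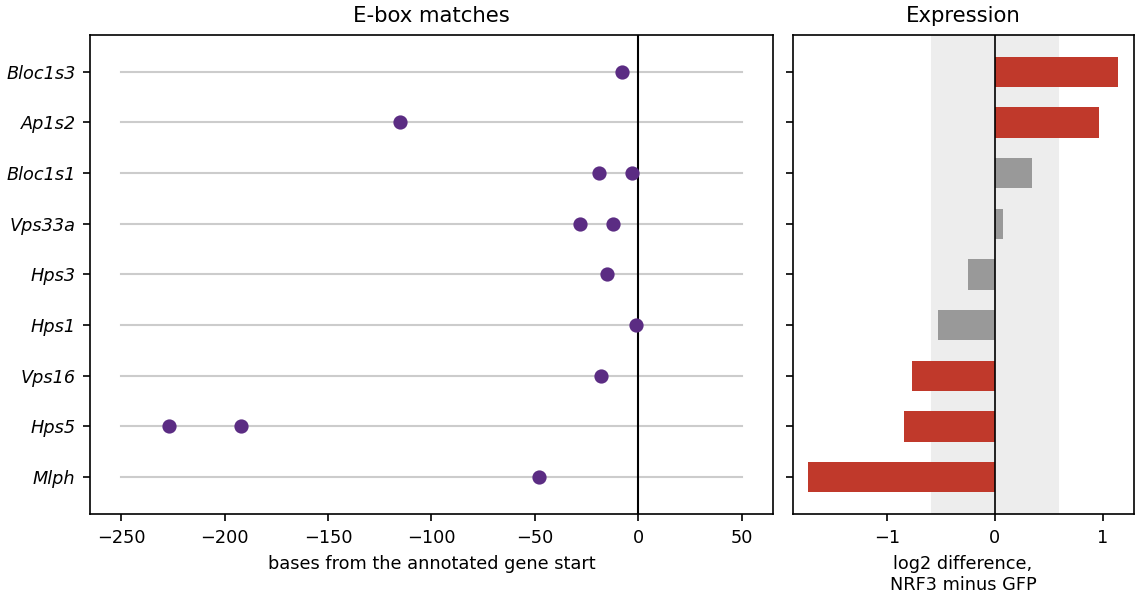
Left, the first base of each E-box in the 9 promoter windows that hold one, in bases from the annotated gene start, with grey lines for the windows searched. Right, the log2 difference of the same gene, NRF3 minus GFP, red where it is at least 1.5-fold and grey where it is not. The genes run from Bloc1s3, at 1.14, to Mlph, at -1.73.

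The transport machinery held the highest and the lowest difference of the whole list. Mlph encodes melanophilin, the linker between RAB27A on the melanosome and myosin Va, and its loss gives the leaden coat colour. Its value was 12.22 on the NRF3 array and 13.95 on the GFP array, 3.32-fold lower in NRF3 cells, a difference of -1.73. Mlph lies on chromosome 1, where 44.2% of detected genes were at least 1.5-fold lower. The median difference of its 50 nearest detected neighbours was -0.69, and with it subtracted Mlph still stood at -1.04. Mlph was not alone in this: Rab17, on the same chromosome with the same neighbour median, differed by -1.64, and by -0.95 after that subtraction. Myo5a encodes the myosin Va motor, the dilute gene product. Its value was 11.78 on the NRF3 array and 12.66 on the GFP array, 1.84-fold lower in NRF3 cells, while its chromosomal neighbours had a median of 0.06. Rab27a, the GTPase of the same tripartite link, went the other way, at 13.77 on the NRF3 array and 13.03 on the GFP array, 1.67-fold higher in NRF3 cells.

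Sytl2 encodes a synaptotagmin-like protein that binds RAB27A and tethers melanosomes to the plasma membrane. Its value was 9.10 on the NRF3 array and 7.22 on the GFP array, a difference of 1.88 or 3.68-fold. The GFP value lay under the upper quartile of the neg rows, 7.52, so this size may depend on background. Of the 3 detected transport genes, 2 were thus lower and 1 was higher in NRF3 cells.

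BLOC-2 had all 3 subunits lower in NRF3 cells, 2 of them by at least 1.5-fold. Of all detected genes 23.6% were that much lower, and their median difference was -0.07. Hps5 was at 8.59 on the NRF3 array and 9.44 on the GFP array, 1.80-fold lower, although its chromosomal neighbours had a median of 0.16. Hps6, the ruby-eye gene, was at 5.32 on the NRF3 array and 6.02 on the GFP array. Each of these values lay under the median of the neg rows on its array, 6.37 and 6.12, so its difference of -0.70 cannot be told from background. Hps3, the cocoa gene, differed by only -0.25, with 8.35 on the NRF3 array and 8.60 on the GFP array. Of the BLOC-2 genes past the rule, only Hps5 lay above the upper quartiles of the neg rows on both arrays.

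BLOC-3 did not share a direction. Hps1, the pale ear gene, was at 6.25 on the NRF3 array and 6.78 on the GFP array, a difference of -0.53 with the NRF3 value under the neg median of 6.37. Hps4, the light ear gene, was at 9.197 on the NRF3 array and 9.004 on the GFP array, a difference of 0.19 that turned to -0.09 with the median of its neighbours subtracted. Neither met the 1.5-fold rule. Of the GTPases that BLOC-3 activates, Rab32 was at 8.20 on the NRF3 array and 8.79 on the GFP array, 1.51-fold lower in NRF3 cells. It no longer passed the rule with the median of its chromosome (-0.35) or its neighbours (-0.49) subtracted. Rab38 differed by -0.42, within the rule, and by -0.66 and -0.67 after the same subtractions.

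BLOC-1, which acts with endosomal tubules that feed the melanosome, had 6 of its 7 listed genes above 0. Their median difference was 0.34, against -0.07 for all detected genes. Of these 7, only Bloc1s3, the reduced pigmentation gene, passed the rule. Its value was 9.58 on the NRF3 array and 8.44 on the GFP array, 2.21-fold higher in NRF3 cells. Bloc1s6, which encodes pallidin, came next at 9.49 on the NRF3 array and 8.96 on the GFP array, 1.45-fold and just short of the rule. It passed the rule under 5 of 7 alternative settings. The others, no floor and probe set means, left its value as it was. Dtnbp1, the dysbindin gene mutated in sandy mice, differed by 0.34, as did Bloc1s1, which passed the rule with the median of its chromosome (0.59) or its neighbours (0.66) subtracted. The other listed subunits differed little, with Bloc1s5 (muted) at 0.17, Bloc1s2 at 0.05 and Bloc1s4 (cappuccino) at -0.17. The Bloc1s4 values, 6.51 on the NRF3 array and 6.68 on the GFP array, were dim. Bloc1s5 lay below 0 once the median of its chromosome or of its neighbours was subtracted. Snapin, a further BLOC-1 subunit that was not in the list, was at 12.18 on the NRF3 array and 10.97 on the GFP array. Its difference of 1.21 was past the rule and larger than that of Bloc1s3.

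**Figure D3:**
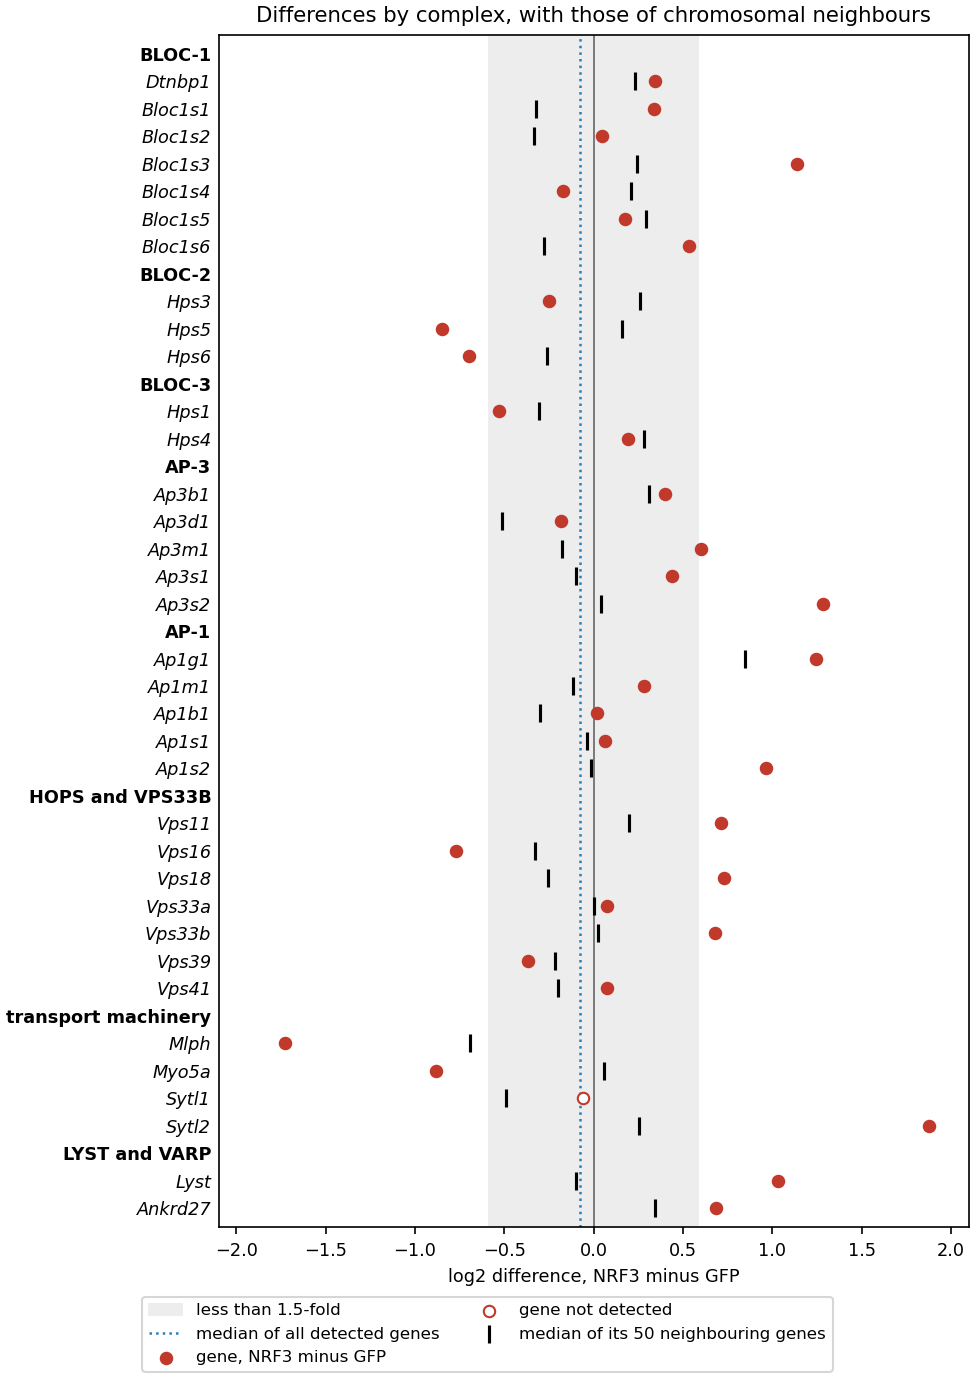
The log2 difference of each gene, NRF3 minus GFP, by complex, with the gene not detected drawn open. Black ticks give the median difference of its 50 nearest detected neighbours on the chromosome, the grey band covers differences under 1.5-fold and the dotted line is the median of all detected genes, -0.07. Sytl2 and Mlph lie at the extremes, and for Ap1g1 the neighbours, at 0.84, lie on the same side of the band as the gene.

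AP-3, which sorts tyrosinase towards melanosomes, had 4 of 5 genes above 0. The median of the 5 was 0.44, against -0.07 for all detected genes. Ap3s2, a small sigma subunit, was at 13.13 on the NRF3 array and 11.84 on the GFP array, 2.43-fold higher in NRF3 cells, with neighbours at 0.04. Ap3m1, the mu subunit that reads tyrosine-based sorting signals, was at 12.82 on the NRF3 array and 12.22 on the GFP array. It only just passed the rule, at 1.52-fold higher in NRF3 cells. The other sigma gene, Ap3s1, differed by 0.44 and the pearl gene Ap3b1 by 0.40. The mocha gene Ap3d1, for the delta subunit, lay on the other side at -0.18, though above 0 with the median of its chromosome or neighbours subtracted.

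AP-1, which sorts cargo at recycling endosomes in melanocytes, had 2 of its 5 listed genes past the rule. Both were higher in NRF3 cells, and the median of the 5 was 0.28. Of all detected genes 17.0% were that much higher, and their median was -0.07. Detected AP-1 subunit genes outside the list lay below 0. Ap1g2, another gamma subunit gene, differed by -0.58, just within the rule. Ap1s3, a sigma subunit gene, differed by -1.29, with values under the neg medians. Ap1g1, the gamma subunit, was at 13.13 on the NRF3 array and 11.89 on the GFP array, 2.37-fold higher in NRF3 cells. It lies on chromosome 8, where 47.5% of detected genes were at least 1.5-fold higher, and its 50 neighbours had a median of 0.84, which left 0.40 and took it below the rule. Ap1s2, a sigma subunit gene on the X chromosome, was at 9.87 on the NRF3 array and 8.90 on the GFP array, 1.95-fold higher, with neighbours at -0.01. Ap1m1, Ap1s1 and Ap1b1 lay within 1.5-fold, at 0.28, 0.06 and 0.02. Ap1m1 and Ap1s1 lay below 0 when the median of their chromosome was subtracted. With the median of their neighbours subtracted they lay above 0, at 0.40 and 0.10.

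In the HOPS group the subunits went both ways, with a median of 0.08. Vps11, Vps16, Vps18 and Vps33a form the core that HOPS shares with the early endosomal tether CORVET. Vps11 was at 11.55 on the NRF3 array and 10.83 on the GFP array, 1.64-fold higher in NRF3 cells, though under the rule, at 0.52, with the median of its neighbours subtracted. Vps18 was 1.66-fold higher, at 7.67 on the NRF3 array and 6.94 on the GFP array, both dim. Vps16 was 1.71-fold lower, at 10.78 on the NRF3 array and 11.55 on the GFP array, but did not pass the rule with the median of its chromosome (-0.55) or its neighbours (-0.44) subtracted. Vps33a, the buff gene, differed by 0.08. The core subunits thus did not share a direction. The subunits specific to HOPS were within the rule, Vps39 at -0.37 and Vps41 at 0.07. Those of CORVET were likewise, Vps8 just so at 0.58 and Tgfbrap1 at 0.06. Vps8 passed the rule with the median of its chromosome (0.61) or its neighbours (0.68) subtracted.

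VPS33B works outside HOPS, in a complex with VIPAS39. Vps33b was at 9.02 on the NRF3 array and 8.35 on the GFP array, 1.60-fold higher in NRF3 cells, though under the rule, at 0.45, with the median of its chromosome subtracted. Vipas39 differed by 0.40. Lyst, the beige gene, which controls the size of lysosome-related organelles, was at 10.93 on the NRF3 array and 9.90 on the GFP array, 2.04-fold higher, with neighbours at -0.10. Ankrd27 encodes VARP, an effector of RAB32 and RAB38 in tyrosinase-family transport. It was at 10.67 on the NRF3 array and 9.99 on the GFP array, 1.61-fold higher, but its neighbours lay at 0.34, which left a difference of 0.34 and put it under the rule.

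Related subunits differed unequally within 3 pairs in which both genes were detected. Ap3s2 exceeded Ap3s1 by 0.85 in its log2 difference, Ap1s2 exceeded Ap1s1 by 0.90 and Vps33b exceeded Vps33a by 0.60. In each pair one gene was past the rule and the other within it. The arrays give no error for such gaps.

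Of the 6 list genes on chromosome 7, 5 were at least 1.5-fold higher (Sytl2, Ap3s2, Bloc1s3, Ankrd27 and Vps33b) and Hps5 was lower. On that chromosome 29.2% of the 723 detected genes passed the rule upwards and 12.2% downwards, and the median difference was 0.23. Outside chromosome 7, 6 of 28 detected list genes were higher, or 21.4%, against 16.1% of the 9439 detected genes outside it. The median difference there was 0.13 for the list and -0.10 for all detected genes. With the median of the 50 neighbours subtracted from every gene, 10 list genes were higher and 3 lower, or 29.4% and 8.82%, against 17.9% and 19.3% of all detected genes.

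**Figure D4:**
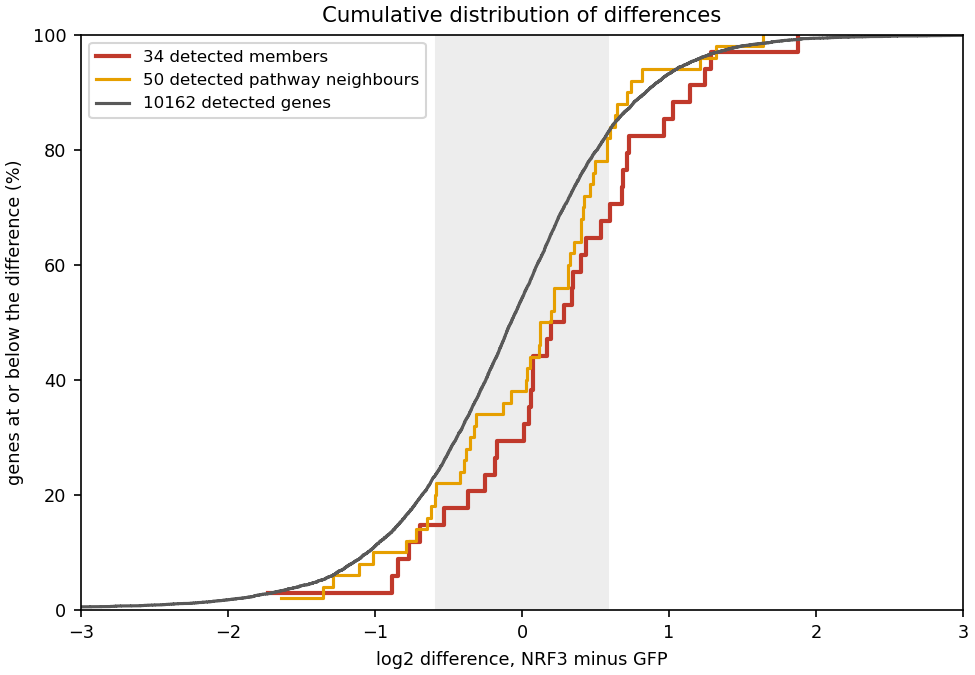
Cumulative share of genes, in percent, at or below each log2 difference, NRF3 minus GFP, for the 34 detected list genes (red), the 50 detected pathway neighbours (orange) and all 10162 detected genes (grey). The grey band covers differences under 1.5-fold. The red curve lies to the right of the grey one over the middle of the range, with medians of 0.24 and -0.07.

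A second list of 65 genes that work beside these complexes was used as a comparison. It held RAB GTPases, SNARE proteins, motors, the lipid kinase complex of PIKFYVE and further adaptor subunits. Of the 50 detected among 62 matched, 9 were at least 1.5-fold higher in NRF3 cells and 10 as much lower. These shares were 18% and 20%, against 17.0% and 23.6% of all detected genes, and the median was 0.16. With chromosome medians subtracted 28% were higher, against 18.1% of all detected genes, and with neighbour medians subtracted 30%, against 17.9%. In each of these settings 18% were lower, against 19.5% and 19.3% of all detected genes. The highest were Vac14, a scaffold for PIKFYVE, at 1.64, Fmn1, a formin that nucleates actin, at 1.32, Snapin at 1.21 and the lysosomal chloride transporter gene Clcn7 at 0.82. Vac14 lies on chromosome 8 beside neighbours with a median of 0.84. The lowest were Rab17 at -1.64, the kinesin heavy chain gene Kif5b at -1.36, Ap1s3 at -1.29 and the SNARE gene Vamp3 at -1.11. Rab17 lies on chromosome 1, as Mlph does, among neighbours with a median of -0.69. The values of Ap1s3, 4.78 on the NRF3 array and 6.07 on the GFP array, were both under the neg medians. Ap1s3 reached the detection floor on the GFP array only.

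**Figure D5:**
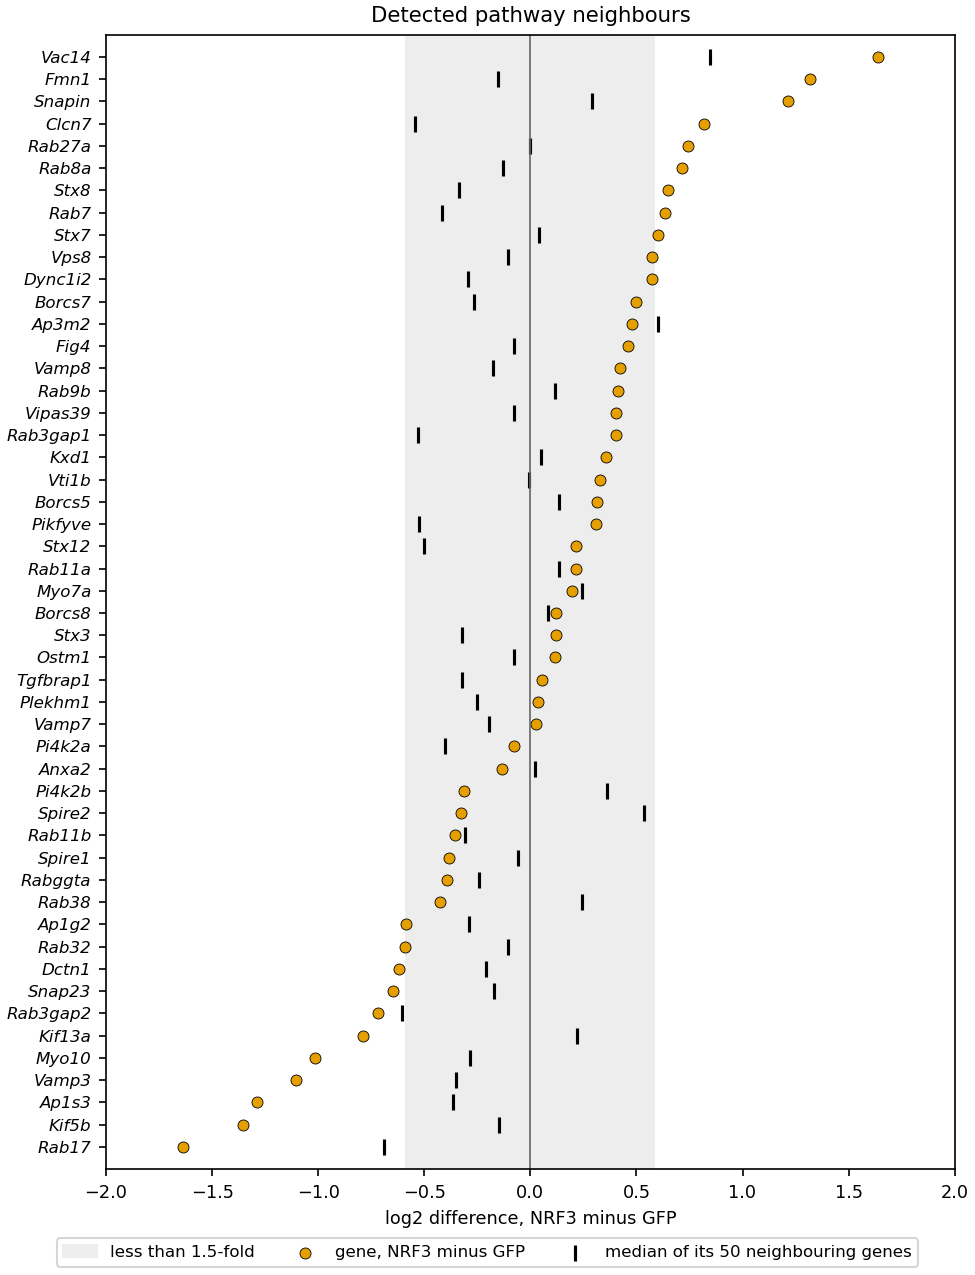
The log2 difference, NRF3 minus GFP, of each of the 50 detected pathway neighbours in order of size, with black ticks for the median of the 50 nearest detected genes on its chromosome. The grey band covers differences under 1.5-fold, within which 31 genes lie. Vac14 is at the top, at 1.64, and Rab17 at the bottom, at -1.64.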

How the data were processed

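Total RNA (100 ng per array) from 2 stable B16F10 populations was hybridised to Affymetrix arrays, 1 per group, per the labels' protocols. The authors deposited 1 log2 expression value per probe set and array, computed with Affymetrix Expression Console and RMA according to the submitters' processing notes, whose version and genome build were not given in the sources used here. The highest values, 19.7 and 19.8, exceed the log2 limit of a 16-bit scanner, so folds are folds on the deposited scale.

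Probe sets were named through the platform annotation. The brightest probe set per gene was used, the NRF3 minus GFP difference was taken, and genes were counted at 1.5-fold, with Python 3.11.15 and pandas 2.3.3. The counting was checked on simulated data. The number of arrays limits the precision. All 35 genes are named. From the neighbour list, 7 fixed genes and the 4 highest and 4 lowest are named in the report, and 8 more, chosen after their values were seen, in the closing section. Ap1g2 is named beside AP-1, also after its value was seen. The genes and lists were chosen with earlier results of these data known. Alternatives were other floors, scalings, a lowess trend (span 0.3), a 2-fold rule, probe set means and subtraction of chromosome medians. Subtraction of the median of 50 neighbours was added after seeing the data. A planned protein comparison was not made here.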

Additional observations from a re-analysis of the deposited data

How the results depend on the processing

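With 1 array per group, no setting yields a test. All 16 list genes past 1.5-fold kept their direction under each of up to 8 alternatives (dim genes have no value under the higher floor), and 10 stayed past the rule throughout. The exceptions were Hps6, Ap1g1, Vps11, Vps16, Vps33b and Ankrd27. Some of these alternatives could not have reversed a direction. A floor only keeps or drops a gene, and no list gene had more than 1 probe set to average. Median centring shifts every gene alike, by less than the rule of size. Only the other scalings and the subtracted medians bear on direction. Of the 18 within the rule, 7 changed sign somewhere. Median centring moved all differences by 0.13, and of all detected genes 21.8% were then higher and 18.9% lower, against 17.0% and 23.6%. The count of lower list genes was 3 of 23 under a floor at the 75th percentile, or 13.0%, against 24.1% of all genes past that floor. It was 3 of 34, or 8.82%, with chromosome or neighbour medians subtracted, against 19.5% and 19.3% of all detected genes. At 2-fold it was 1, beside 5 higher (2.94% and 14.7%, against 11.0% and 6.75% of all detected genes). For pathway neighbours 3 were higher and 5 lower at 2-fold, or 6% and 10%. The pathway neighbours had 14 higher after median centring (28%, against 21.8% of all detected genes), beside 7 lower (14%, against 18.9%). They had 14 higher with chromosome medians subtracted (28%, against 18.1%) and 15 with neighbour medians subtracted (30%, against 17.9%). In each of these 2 settings they had 9 lower (18%, against 19.5% and 19.3%). They had 6 of 37 lower with the higher floor (16.2%, against 24.1%) and 6 of 50 after quantile normalization (12%, against 19.9%). The BLOC-2 median was -0.57 after median centring, -0.41 with chromosome and -0.51 with neighbour medians subtracted. The LYST and VARP median was 0.65 with chromosome medians subtracted. The transport median was -0.47 with no floor, which adds Sytl1, and -1.31 with the higher floor, which drops Sytl2. The HOPS median ran between -0.06 and 0.27. No paired analysis was possible because each group has 1 array and no replicate number.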

Other observations

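The neighbour list held some smaller sets, described here after their values were seen. The genes of the PIKFYVE complex, which makes the phosphoinositide of late endosomes, were above 0 in NRF3 cells. Vac14 differed by 1.64, Fig4 by 0.46 and Pikfyve by 0.31. Of 4 detected genes of microtubule motors and dynactin, 3 were at least 1.5-fold lower in NRF3 cells and 1 was within the rule. Of all detected genes 23.6% were that much lower, and a set of 4 picked after the fact gives no share to set against it. Kif5b was at 10.37 on the NRF3 array and 11.72 on the GFP array. Kif13a, whose kinesin works with AP-1 in melanosome cargo transport, was at 6.72 on the NRF3 array and 7.50 on the GFP array, both under the upper quartiles of the neg rows. The dynactin gene Dctn1 differed by -0.62, and the dynein intermediate chain gene Dync1i2, within the rule, by 0.58. With neighbour medians subtracted, Dctn1 lay within the rule, at -0.41, and Dync1i2 past it, at 0.87. Among actin-related genes, Fmn1 was higher at 9.78 on the NRF3 array and 8.46 on the GFP array, while Spire1 differed by -0.38 and the filopodial myosin gene Myo10 by -1.01. Myo7a, another melanosome-associated myosin, differed by 0.20.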
